A study of Emberiza melanocephala with 12 samples.

Results

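Livers taken around lights on were compared with livers taken late in the light phase in blackheaded buntings (Emberiza melanocephala), night-migratory songbirds. The comparison used 8 of the 12 liver libraries of the study, chosen by their time labels: 4 libraries of ZT21 and ZT1, called dawn here, and 4 libraries of ZT9 and ZT13, called late day here. ZT counts hours after lights on, so ZT21 lay in the dark before lights on and ZT1 in the first part of the light phase. The second group has also been called dusk, but under the long days used ZT9 and ZT13 both fell before lights off. All birds were adult males held singly in cages on long days, in 1 of 2 seasonal states. Photostimulated migratory (M, labelled LDM) birds were photosensitive birds moved from short to long days until they showed nocturnal migratory restlessness, and photorefractory non-migratory (nM, labelled LDR) birds had stayed on long days until they no longer responded to them. Each state gave 2 birds to each side, 1 bird per time, so M and nM birds share the lighting of the day, the sex and the captivity, and differ in their photoperiod history. The libraries of ZT5 and ZT17 entered no test here and are given only to place a gene in the day.

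The liver clock is a feedback loop in which the activators CLOCK and ARNTL, or their paralogs NPAS2 and ARNTL2, switch on the genes of their own repressors, among them the PER, CRY and BHLHE40 proteins and the nuclear receptors NR1D1 and NR1D2. The NR1D receptors in turn repress NPAS2, ARNTL and NFIL3, and output factors such as TEF, HLF and NFIL3 carry the timing to genes of metabolism. In birds, as in mammals, the liver is a peripheral clock that also follows feeding, and it handles sterols, bile acids, amino acids and stored fat in daily cycles. RNA of a whole liver piece was measured, so fewer cells of a type and less RNA per cell cannot be told apart.

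FPKM, a gene's fragments scaled by transcript length and by the mapped reads of the library, was the measure. Of 18284 genes 9561 were tested, those with over 0.1 FPKM in 7 or all 8 libraries and thus in at least 3 libraries of each side, so no gene passed through one side alone. A gene symbol was known for 4085 of these. The 8 libraries had FPKM sums of 1520000 to 2510000, and 7260 to 8089 genes were listed at 0. The 10 most abundant genes took 43.8 to 49.8% of the FPKM at dawn and 45.0 to 58.9% in the late day, and rank correlations between libraries over the genes tested ran from 0.884 to 0.962. Of 20 hepatocyte markers 11 had a symbol in the table, with summed FPKM of 21570 to 128300 at dawn and 20320 to 118700 in the late day, and C3 was the only one listed at 0 in all 8. The nM library of ZT13 held RNA of skeletal muscle genes: TNNT3, a fast muscle troponin, was at 428 FPKM against 0 to 1.05 FPKM in the other 7, and the sum of TNNT3 and PVALB-2, the 2 of 13 muscle markers with a symbol, was 515.5 FPKM against 0.261 to 3.04 FPKM. The pancreas marker CPA1 stood at 29.8 FPKM in the M library of ZT13 and at 0.198 to 6.07 FPKM in the other 7 libraries. At dawn, the nM library of ZT1 had the largest FPKM sum, 2510000, and the lowest median rank correlation with the other libraries, 0.9. Some genes named below were far higher in that library than in the rest. Without it 11 higher and 7 lower genes were called in the comparison described next, and differences of single genes without it are not given here. By the sequencing record the nM library of ZT13 also had the fewest reads of all, and the M library of ZT9 the lowest base quality. Of the calls described next, 7 higher and 2 lower genes were called without the former, and 4 and 0 without the latter.

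A total of 15 genes differed between dawn and late day at an FDR below 0.1 in limma with state as a covariate, 10 higher at dawn (0.105% of the genes tested) and 5 lower (0.0523%). The genes that rose at dawn included the clock repressor NR1D2, the clock output factor TEF, the triglyceride lipase PNPLA2, the growth factor IGF1, the glucuronosyltransferase UGT1A8, the heat shock factor HSF2 and MSL1, a scaffold of a histone acetyltransferase complex. The genes that fell included the clock repressor CRY1 and KLHL30, of the kelch-like family. In all 15 genes the 4 dawn libraries lay beyond the 4 late day libraries, a separation that 2.46% of all genes tested showed upward and 1.59% downward. At an unadjusted p under 0.05, 5.79% of all genes tested were higher and 4.26% lower, and the median difference of all genes was 0.03 on the log2(FPKM + 1) scale, which is the scale of every log2 difference below. With 1 bird for each time and state, these p-values measure the spread among birds that also differ in time within a side.

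Clock repressors were the first group. Of 14 listed genes 9 had a symbol and passed the filter, with 1 called higher and 1 called lower. NR1D2 (ENSTGUG00000003335) stood at 30.1 FPKM in M ZT21, 58.6 in M ZT1, 81.0 in nM ZT21 and 56.4 in nM ZT1. In the late day it was at 4.01 FPKM in M ZT9, 2.22 in M ZT13, 7.95 in nM ZT9 and 4.32 in nM ZT13. Every dawn library was thus several times above every late day library, with a mean of 56.5 ± 20.8 FPKM against 4.62 ± 2.40 FPKM (SD, n = 4 per side). The log2 difference was 3.37 (standard error 0.30, adjusted p = 0.0150, limma), at 3.42 in M birds and 3.31 in nM birds.

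CRY1 (ENSTGUG00000010999), which represses the CLOCK-ARNTL pair together with PER proteins, ran the other way. Its dawn values were 8.04 FPKM in M ZT21, 15.3 in M ZT1, 5.47 in nM ZT21 and 16.5 in nM ZT1, and its late day values were 65.4 in M ZT9, 72.3 in M ZT13, 74.5 in nM ZT9 and 158 in nM ZT13. The lowest late day library was about as far above the highest dawn library in M as in nM birds, and the log2 difference was -2.94 (standard error 0.40, adjusted p = 0.0459, limma). Within dawn, both ZT1 libraries were above both ZT21 libraries, and in both states CRY1 was highest of the 6 times at ZT13.

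PER3, a period protein, had a large difference that did not pass the test. It was at 27.1 FPKM in M ZT21, 19.4 in M ZT1, 12.6 in nM ZT21 and 25.7 in nM ZT1, against 1.35 in M ZT9, 0.382 in M ZT13, 6.95 in nM ZT9 and 0.350 in nM ZT13. The sides did not overlap, and within the late day ZT9 lay above ZT13 in both states. The log2 difference was 3.13 (standard error 0.55, adjusted p = 0.139, limma).

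The other repressors did not separate. PER2, another period protein, was at 6.64 and 13.9 FPKM in the M and nM libraries of ZT1 but at 0.356 and 1.51 FPKM at ZT21, and at 5.32 and 13.6 FPKM at ZT9 but 0.630 and 0.813 FPKM at ZT13. Its values within a side thus differed more than the sides did, with a log2 difference of 0.13 (standard error 0.87). BHLHE40, a basic helix-loop-helix repressor, was highest at ZT1 in both states, at 31.9 FPKM in M and 80.5 FPKM in nM birds, and its lowest of the 8 values was 1.12 FPKM in nM ZT13 (log2 difference 1.68, standard error 0.88, adjusted p = 0.558, limma). CRY2 had a log2 difference of -0.11 (standard error 0.21). The ubiquitin ligase subunit FBXL21, which acts on CRY proteins, had a log2 difference of 0.24, and the kinase CSNK1E, which phosphorylates PER proteins, one of -0.51.

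**Figure D1:**
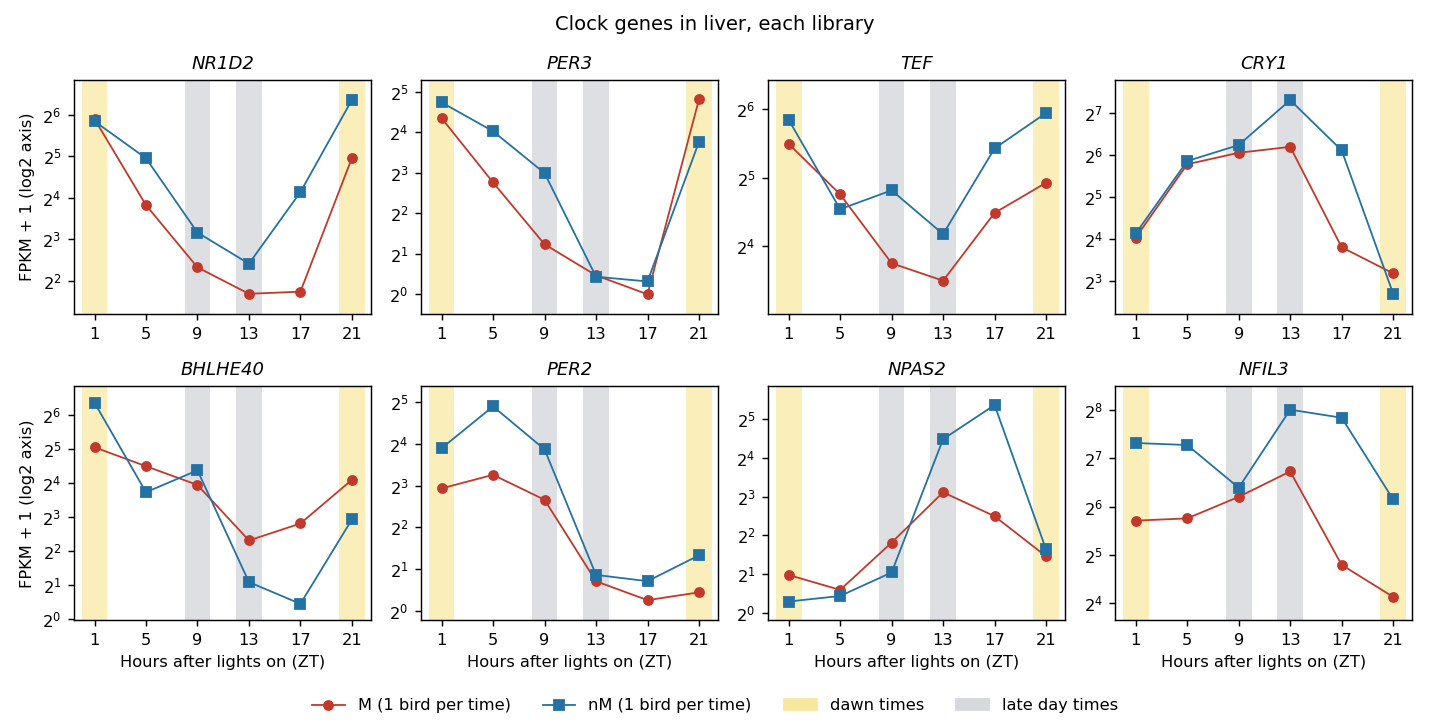
FPKM + 1 on a log2 axis against hours after lights on for 8 clock genes, with 1 point for each bird, M birds as circles and nM birds as squares. The yellow bands mark the dawn times ZT21 and ZT1 and the grey bands the late day times ZT9 and ZT13. NR1D2, PER3 and TEF lie higher in the yellow bands and CRY1 higher in the grey bands in both states, while PER2 is high at ZT1 and ZT9 and low at ZT21 and ZT13.

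Of 7 clock activators 2 passed the filter with a symbol and neither passed the test. NPAS2, the paralog of CLOCK, was at 1.75 FPKM in M ZT21, 0.973 in M ZT1, 2.11 in nM ZT21 and 0.229 in nM ZT1, against 2.52 in M ZT9, 7.63 in M ZT13, 1.06 in nM ZT9 and 21.3 in nM ZT13. Only the ZT13 libraries stood above all dawn libraries in both states, and the log2 difference was -1.52 (standard error 0.69, adjusted p = 0.509, limma). ARNTL2 had a log2 difference of 0.30 (standard error 0.24).

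Of 4 output factors 3 passed the filter, and TEF passed the test. TEF (ENSTGUG00000009944), a PAR bZIP activator, was at 29.4 FPKM in M ZT21, 44.0 in M ZT1, 60.6 in nM ZT21 and 56.5 in nM ZT1, and at 12.5 in M ZT9, 10.3 in M ZT13, 27.1 in nM ZT9 and 17.1 in nM ZT13. The dawn libraries were higher in each state, with the lowest dawn and the highest late day values close together across states, and the log2 difference was 1.49 (standard error 0.23, adjusted p = 0.0795, limma). NFIL3, a repressor of the same target sites and in mice itself repressed by NR1D proteins, had a log2 difference of -1.004 (standard error 0.50, adjusted p = 0.536, limma), at 16.5 to 158 FPKM at dawn and 72.6 to 256 FPKM in the late day, and its nM values exceeded the M values of the same time at all 4 times. HLF, another PAR bZIP factor, was at 122 and 99.4 FPKM at ZT1 but at 35.3 and 46.0 FPKM at ZT21 in M and nM birds, with a log2 difference of 0.36 (standard error 0.40).

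PNPLA2 (ENSTGUG00000009785), adipose triglyceride lipase, which starts the breakdown of stored fat, rose at dawn. It was at 37.0 FPKM in M ZT21, 55.7 in M ZT1, 169.9 in nM ZT21 and 161 in nM ZT1, against 12.7 in M ZT9, 12.0 in M ZT13, 35.7 in nM ZT9 and 26.9 in nM ZT13. At each of the 4 times the nM bird was above the M bird, and the dawn to late day step was seen within each state. The log2 difference was 2.09 (standard error 0.23, adjusted p = 0.0252, limma), at 1.80 in M and 2.38 in nM birds.

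IGF1 (ENSTGUG00000011279), the circulating growth factor that liver makes under growth hormone, rose as well. It was at 21.6 FPKM in M ZT21, 34.7 in M ZT1, 50.9 in nM ZT21 and 77.5 in nM ZT1, and at 7.27 in M ZT9, 6.38 in M ZT13, 14.1 in nM ZT9 and 16.3 in nM ZT13. The sides did not overlap and ZT1 was above ZT21 in both states. The log2 difference was 1.92 (standard error 0.23, adjusted p = 0.0255, limma), at 1.86 in M and 1.98 in nM birds. At ZT17 the states lay apart, with 8.57 FPKM in the M and 61.1 FPKM in the nM bird.

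UGT1A8 (ENSTGUG00000003152) carries the symbol of a human enzyme that conjugates hormones and foreign compounds with glucuronic acid, and reads of such gene families may be shared between copies. It was at 90.5 FPKM in M ZT21, 111 in M ZT1, 132 in nM ZT21 and 139 in nM ZT1, against 22.6 in M ZT9, 36.6 in M ZT13, 20.9 in nM ZT9 and 21.7 in nM ZT13. All late day values lay well below all dawn values, the M library of ZT13 being the highest of the late day, and the log2 difference was 2.19 (standard error 0.25, adjusted p = 0.0255, limma). UGT1A8 was also high at ZT5, at 109.9 FPKM in the M and 87.1 FPKM in the nM bird. At ZT17 it was at 14.6 FPKM in the M and 127.5 FPKM in the nM bird.

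NT5DC4 (ENSTGUG00000003390), a predicted nucleotidase, had the largest positive log2 difference among the called genes, 3.43 (standard error 0.45, adjusted p = 0.0434, limma). Its level was at 1139 FPKM in M ZT21, 407 in M ZT1, 1664 in nM ZT21 and 1858 in nM ZT1, against 53.2 in M ZT9, 109.9 in M ZT13, 233 in nM ZT9 and 74.9 in nM ZT13. It was also high at ZT17, at 1418 FPKM in the M and 829.6 FPKM in the nM bird, so its low values in both states were those of the late day.

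HSF2 (ENSTGUG00000011838), a heat shock transcription factor, was at 25.1 FPKM in M ZT21, 36.6 in M ZT1, 33.2 in nM ZT21 and 42.9 in nM ZT1, and at 7.11 in M ZT9, 10.9 in M ZT13, 13.2 in nM ZT9 and 11.6 in nM ZT13. Its mean was 34.4 ± 7.39 FPKM at dawn and 10.7 ± 2.57 FPKM in the late day (SD, n = 4 per side), with a log2 difference of 1.60 (standard error 0.22, adjusted p = 0.0459, limma). Beside HSF2 itself, 0 of the other 10 members tested of the list of heat shock factor targets were called. HSPE1, a mitochondrial chaperonin, had a log2 difference of -0.58 (standard error 0.20), and the median of all 11 was 0.00.

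MSL1 (ENSTGUG00000002297), of the complex that acetylates histone H4, was at 42.4 FPKM in M ZT21, 28.4 in M ZT1, 39.5 in nM ZT21 and 74.8 in nM ZT1. Its late day values were nearly equal, at 10.9 FPKM in M ZT9, 11.9 in M ZT13, 10.7 in nM ZT9 and 12.9 in nM ZT13. The values of ZT5 and ZT17 lay near those of the late day, at 8.77 to 14.2 FPKM, so in both states ZT21 and ZT1 held the 2 highest values. The log2 difference was 1.82 (standard error 0.27, adjusted p = 0.0674, limma).

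KLHL30 (ENSTGUG00000006568) fell at dawn. It was at 1.48 FPKM in M ZT21, 2.37 in M ZT1, 0.181 in nM ZT21 and 0.137 in nM ZT1, against 11.2 in M ZT9, 7.44 in M ZT13, 6.62 in nM ZT9 and 5.54 in nM ZT13. The nM library of ZT13, which held muscle RNA, had the lowest of its 4 late day values. The log2 difference was -2.21 (standard error 0.25, adjusted p = 0.0252, limma), and without that library KLHL30 had an adjusted p of 0.0961 (limma). It lost its call without the M library of ZT9 (adjusted p = 0.141, limma).

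The other 5 called genes had no symbol, and of these 2 rose and 3 fell. ENSTGUG00000000964 was at 41.0 to 88.9 FPKM at dawn and 8.92 to 22.9 FPKM in the late day (log2 difference 1.99, standard error 0.19, adjusted p = 0.0154, limma), and ENSTGUG00000007481 at 64.5 to 159 and 19.3 to 32.1 FPKM (log2 difference 1.86, standard error 0.22, adjusted p = 0.0255, limma). ENSTGUG00000018375 had the largest difference of all genes tested, at 13.8 FPKM in M ZT21, 18.5 in M ZT1, 0.899 in nM ZT21 and 40.1 in nM ZT1 against 1505 in M ZT9, 1310 in M ZT13, 459 in nM ZT9 and 396 in nM ZT13. Its log2 difference was -5.98 (standard error 0.78, adjusted p = 0.0434, limma), and it reached 5640 FPKM in the M bird of ZT17. ENSTGUG00000013562 was at 7.21 to 22.1 FPKM at dawn and 55.4 to 90.5 FPKM in the late day (log2 difference -2.58, standard error 0.35, adjusted p = 0.0459, limma).

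**Figure D2:**
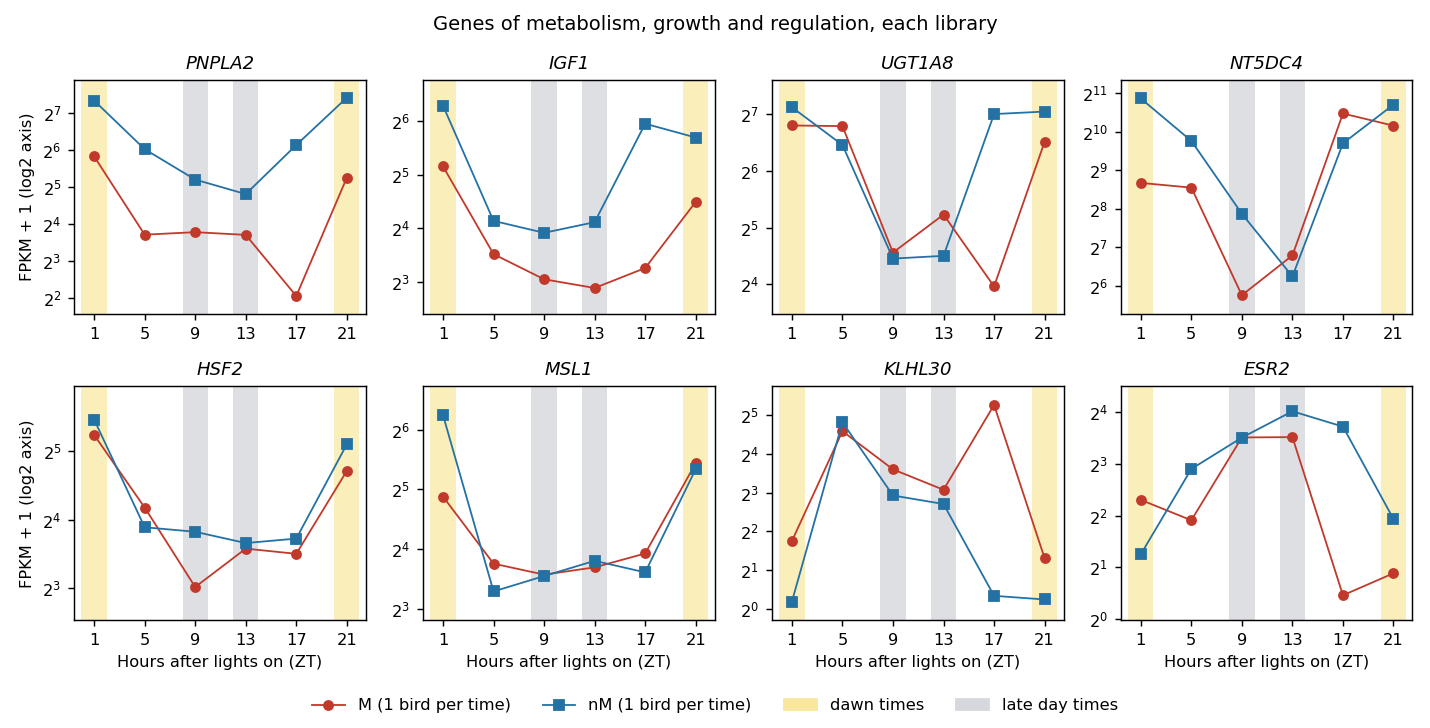
FPKM + 1 on a log2 axis against hours after lights on for 8 genes, with 1 point for each bird, M birds as circles and nM birds as squares; yellow bands mark the dawn times and grey bands the late day times. The top row and HSF2 and MSL1 are higher at dawn, KLHL30 and ESR2 lower. In PNPLA2 and IGF1 the nM birds lie above the M birds at every time.

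The genes next in line did not pass. ESR2, an estrogen receptor, missed the threshold by least. It was at 0.849 FPKM in M ZT21, 3.94 in M ZT1, 2.83 in nM ZT21 and 1.38 in nM ZT1, against 10.4 in M ZT9, 10.5 in M ZT13, 10.4 in nM ZT9 and 15.2 in nM ZT13, without overlap (log2 difference -2.05, standard error 0.33, adjusted p = 0.102, limma). The called gene nearest to the threshold, a gene without a symbol that fell, had an adjusted p of 0.0806. Among named genes with the smallest p-values, MKLN1 (muskelin, part of a ubiquitin ligase complex) had a log2 difference of 1.16 and CYP2J2-1 (a cytochrome of fatty acid epoxidation) one of 1.63. On the lower side SPG21, WIF1 (a secreted Wnt inhibitor), FAM65B, DHRS3 (a retinal reductase), C21orf55, FAM46B, GPD1-1 (glycerol phosphate dehydrogenase) and SSPN (sarcospan, of the dystrophin complex) had log2 differences of -1.96 to -1.16, and these 10 genes had adjusted p-values of 0.137 to 0.235 (limma). SSPN was at 19.0 FPKM in nM ZT9 and 17.9 FPKM in the nM library of ZT13.

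Over the whole day, the 10 genes that rose had their highest of 6 values at ZT21 or ZT1 in 9 cases in M birds, the exception being NT5DC4 at ZT17, and in 10 cases in nM birds. The 5 genes that fell were highest at ZT9 or ZT13 in 2 M and 3 nM cases, at ZT17 in the other 3 M cases and at ZT5 in the other 2 nM cases. The sides did not overlap in any called gene, so a peak on the opposite side was excluded in advance. Only the values of ZT5 and ZT17 are new in these counts. Among M birds, that of ZT17 thus held the highest value for 3 of the 5 genes that were low at dawn. Its library was not among the 8 compared. That library also stood apart in other genes, with GBE1 at 6.05 FPKM and CRY2 at 2.79 FPKM, below all 8 libraries compared.

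Whether the dawn difference depended on the seasonal state was tested by an interaction term. No gene passed by limma (0 of 9561, 0%), with 375 genes at an unadjusted p under 0.05 and a smallest adjusted p of 0.878. Regression without moderation also gave 0 genes, with 348 at an unadjusted p under 0.05, and limma with a trend gave 0, with 381. Without the nM library of ZT21, and likewise without that of nM ZT9, 6 genes passed, and 1 passed without that of nM ZT13.

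M and nM differences come from different birds. Across the 9561 genes they had a Pearson r of 0.277 and a Spearman rho of 0.259, and 58.6% of genes had the same sign. The genes are not independent, and the M and nM libraries were made and sequenced together. The 141 genes with both M dawn libraries above both M late day libraries by a mean of over 1 had, in nM birds, the same sign in 111 cases (78.7%, against 58.8% of all genes) and a difference over 1 in 53 cases (37.6%, against 5.96% of all genes). The 255 genes lower at dawn in M birds by the same rule were lower in nM birds in 153 cases (60.0%, against 41.2%). They were lower by over 1 in 52 cases (20.4%, against 3.6%). Chosen in nM birds, 444 genes higher at dawn were higher in M birds in 324 cases (73.0%, against 48.1%), and 292 genes lower at dawn were lower in 201 cases (68.8%, against 51.9%). Differences of over 1 in the same direction were seen in 61 of the 444 (13.7%, against 1.81%) and 50 of the 292 (17.1%, against 3.1%). The ZT1 minus ZT13 and ZT21 minus ZT9 differences, also from different birds, had a Pearson r of 0.236 across genes and the same sign in 56.4%.

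**Figure D3:**
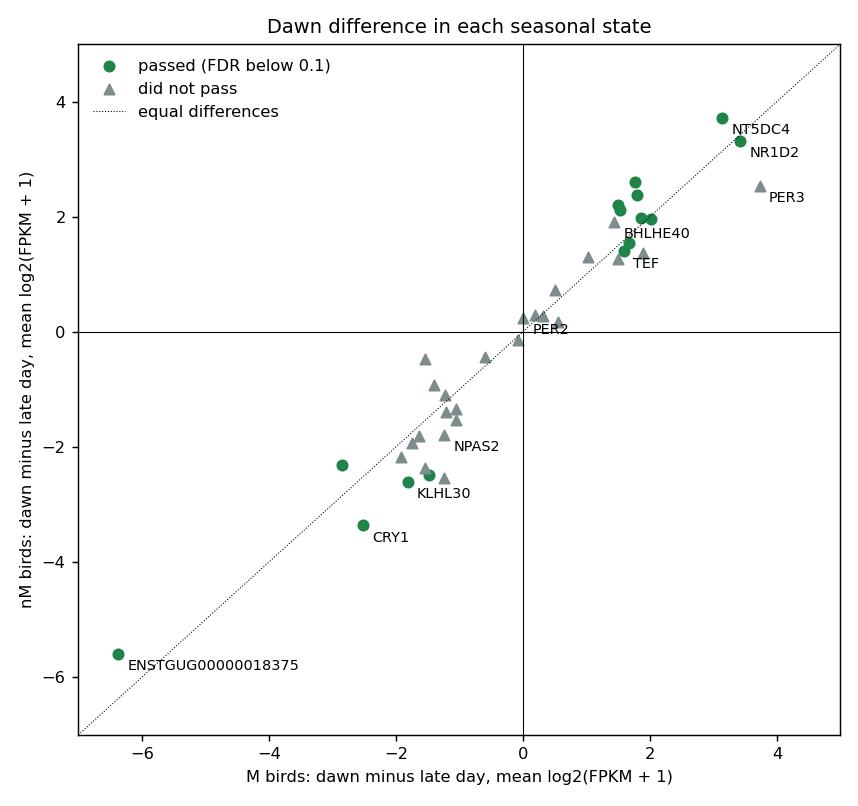
Mean log2(FPKM + 1) at dawn minus late day in nM birds (vertical axis) against the same in M birds (horizontal axis) for the clock genes, the named genes of smallest p in each direction and the called genes without a symbol. Green circles passed the test over both states and grey triangles did not; the dotted line marks equal differences. All green circles lie in the upper right or lower left area of the plot, which the choice by the pooled test favours.

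The gene lists below are counted at an unadjusted p under 0.05, since IGF1, PNPLA2 and HSF2 were the only members outside the clock lists to pass adjustment. The symbols come largely from a list of genes found cyclic in these same libraries, so named genes are a chosen part of each pathway. Among the 4085 named genes tested, 8.08% were higher and 5.8% lower at that level, 3.38% had all 4 dawn libraries above the late day libraries, and 2.2% had all 4 below. Each list is described beside these shares, and values in parentheses after a gene are log2 differences.

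In cholesterol synthesis 5 of 9 genes tested were higher, 0 were lower and the median log2 difference was 0.67. NSDHL, a sterol dehydrogenase of the late pathway, was at 176 FPKM in M ZT21, 168 in M ZT1, 166 in nM ZT21 and 345 in nM ZT1, against 89.6 in M ZT9, 90.3 in M ZT13, 58.4 in nM ZT9 and 41.5 in nM ZT13 (log2 difference 1.59, standard error 0.34, adjusted p = 0.239, limma). At ZT17 NSDHL was at 463 FPKM in the M bird, above all dawn values, and at 204 FPKM in the nM bird. The other higher genes were ACAT2 (0.67), CYP51A1 (0.81), DHCR7 (0.72) and LSS (0.62). HMGCS1, which makes the precursor HMG-CoA, had M values of 549 and 312 FPKM at dawn against 287 and 778 FPKM in the late day, and nM values of 2127 and 5057 FPKM at dawn against 106 and 413 FPKM. Its interaction with state did not pass (unadjusted p = 0.00476, adjusted p = 0.998, limma). The count of 5 ran from 4 to 7 with 1 library left out, an alternative added after the data were seen, as for the other lists.

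In bile acid and sterol handling 3 of 11 genes were higher and 0 lower, with a median of 0.48. ABCG5, which with ABCG8 exports sterols into bile, was at 107 FPKM in M ZT21, 135 in M ZT1, 123 in nM ZT21 and 72.0 in nM ZT1, against 44.1 in M ZT9, 40.1 in M ZT13, 43.0 in nM ZT9 and 34.9 in nM ZT13. The sides were well apart, with a log2 difference of 1.38 (standard error 0.23, adjusted p = 0.122, limma). ABCG8 had a log2 difference of 0.65 (standard error 0.50) and was not among the 3. Its sides overlapped, with 21.5 FPKM in nM ZT1. CYP8B1, the hydroxylase needed for cholic acid, was at 12.6 to 57.2 FPKM at dawn and 1.71 to 4.96 FPKM in the late day (log2 difference 2.42, standard error 0.46, adjusted p = 0.161, limma), and NR1H4, the bile acid receptor, had a log2 difference of 1.29. CYP7A1, the rate-limiting enzyme of bile acid synthesis, had one of -0.45 and did not pass at that level.

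In the insulin-like growth factor axis 3 of 7 genes were higher, and all 7 differences were above 0, with a median of 1.08. Beside IGF1 these were CISH and SOCS2, which are induced by growth hormone signaling and damp it. CISH was at 17.8 FPKM in M ZT21, 17.4 in M ZT1, 194 in nM ZT21 and 133 in nM ZT1, against 8.15 in M ZT9, 16.9 in M ZT13, 29.8 in nM ZT9 and 11.8 in nM ZT13. The difference was seen mainly in the nM values, with log2 differences of 0.54 in M and 3.02 in nM birds. The interaction had an unadjusted p of 0.00749 and an adjusted p of 0.998 (limma). In nM birds CISH was higher still at ZT5 and ZT17, at 272 and 394 FPKM, so its low nM values were those of the late day. The M birds of ZT5 and ZT17 had 8.17 and 17.8 FPKM. The median of the list was 0.38 in M and 1.77 in nM birds. SOCS3, with a log2 difference of 1.91, was not among the 3. It was at 76.0 FPKM in nM ZT1 and at 0 to 1.44 FPKM in the other libraries compared.

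In amino acid catabolism 6 of 20 genes were higher and 0 lower, with a median of 0.45, at 0.13 in M and 0.71 in nM birds. KYNU, of tryptophan breakdown, was at 253 FPKM in M ZT21, 254 in M ZT1, 277 in nM ZT21 and 192 in nM ZT1, against 148 in M ZT9, 137 in M ZT13, 139 in nM ZT9 and 122 in nM ZT13. The sides did not overlap, and the log2 difference was 0.82 (standard error 0.19, adjusted p = 0.287, limma), at 0.83 in M and 0.82 in nM birds. TDO2, the first enzyme of the same pathway, had a log2 difference of 0.90, and HPD, of tyrosine breakdown, 1.47. The HPD difference was 0.42 in M and 2.53 in nM birds, without an interaction that passed. HAL, of histidine, had 1.20 and BCKDHB, of branched-chain amino acids, 0.60. TAT, a glucocorticoid target, had -0.11.

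In autophagy 4 of 12 genes were higher and 0 lower, with a median of 0.38. ULK1, the kinase that starts autophagy, was at 3.32 FPKM in M ZT21, 11.6 in M ZT1, 26.5 in nM ZT21 and 59.6 in nM ZT1, against 2.22 in M ZT9, 2.33 in M ZT13, 4.34 in nM ZT9 and 1.73 in nM ZT13. MAP1LC3A, a protein of the autophagosome membrane, was at 433 FPKM in nM ZT1 and at 36.1 to 130 FPKM in the other dawn libraries. It was within 22.3 to 26.9 FPKM in the late day. Both had adjusted p-values of 0.310 and 0.361 (limma), and their nM differences, 3.42 and 3.28, exceeded their M differences, 1.17 and 0.71, without an interaction that passed. In the proteasome, the complex that degrades tagged proteins, 5 of 23 genes were higher and 0 lower, 20 of 23 differences were above 0, and the median was 0.28. The 5 were the core subunit PSMB1 (0.59), the cap subunits PSMC1 (0.72), PSMC6 (0.45) and PSMD6 (0.57), and the assembly chaperone PSMG2 (0.80), and the sides overlapped in PSMB1 alone of these.

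In fatty acid and triglyceride synthesis 4 of 20 genes were higher and 2 lower, with a median of 0.04. The member that passed, PNPLA2, breaks triglycerides down. ACLY and FASN, of fatty acid synthesis, had log2 differences of 1.01 and 0.65, and APOB, which carries fat out of the liver, 0.69. THRSP, a lipogenic protein induced by thyroid hormone, and GPAM, the first acyltransferase of triglyceride synthesis, had -1.45 and -1.14. The GPAM difference was 0.02 in M and -2.29 in nM birds, and that of FASN 1.20 and 0.11. Neither interaction with state passed (unadjusted p = 0.00669 and 0.0339, adjusted p = 0.998 for both, limma). The count of 2 lower ran from 0 to 2 with 1 library left out, and was lowest without nM ZT9. In fatty acid oxidation 2 of 12 were higher and 0 lower: CPT1A, the gate of mitochondrial entry, was at 122 FPKM in M ZT21, 96.9 in M ZT1, 304 in nM ZT21 and 134 in nM ZT1 against 58.5, 57.8, 27.3 and 66.3 FPKM in M ZT9, M ZT13, nM ZT9 and nM ZT13, and BDH1, of ketone body metabolism, had a log2 difference of 1.38. The BDH1 difference was -0.02 in M and 2.78 in nM birds, and its interaction with state did not pass (unadjusted p = 0.00168, adjusted p = 0.998, limma).

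In glycolysis and gluconeogenesis 2 of 16 genes were higher and 3 lower. PKM2, a pyruvate kinase, was at 61.1 FPKM in M ZT21, 18.9 in M ZT1, 12.5 in nM ZT21 and 10.8 in nM ZT1, against 71.8 in M ZT9, 87.2 in M ZT13, 60.8 in nM ZT9 and 89.0 in nM ZT13, where the M dawn value of ZT21 lay within the late day range (log2 difference -1.88, adjusted p = 0.245, limma). PGK1 had -0.94 and GBE1, the glycogen branching enzyme, -0.99, while LDHB, a lactate dehydrogenase, had 1.31 and PFKFB4 0.69. Muscle RNA includes glycolytic transcripts, and the muscle markers were high in the nM library of ZT13, in which PKM2, PGK1 and GBE1 had their highest late day values. Other members of the list were mixed there. LDHA and PFKFB4 also had their highest late day values in it, while ENO1, PFKM-2, SLC2A2, PFKFB2, HK1 and PYGL had their lowest. The count of 3 lower ran from 2 to 3 with 1 library left out, and the part of muscle RNA in these differences was not tested.

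Cell cycle genes were lower on balance, with 0 of 13 higher, 3 lower and 11 of 13 differences below 0 (median -0.61). The 3 were CCNB2, a cyclin of mitotic entry (log2 difference -0.79), MCM6, of the replicative helicase (-0.93), and WEE1, the kinase that holds back mitosis and a clock target in mice (-1.10). WEE1 was at 2.55 FPKM in M ZT21, 8.85 in M ZT1, 0.897 in nM ZT21 and 1.92 in nM ZT1, against 9.28 in M ZT9, 12.8 in M ZT13, 2.28 in nM ZT9 and 7.92 in nM ZT13. Each late day value was above the dawn values of the same state, but M and nM levels overlapped across sides. With 1 library left out the count of 3 ran from 2 to 5.

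Markers of hepatic stellate cells and fibroblasts, the matrix-producing cells of liver, were lower at dawn in part. Of 15 listed genes 8 were tested, of which 0 were higher and 4 lower, with a median log2 difference of -0.60. LUM, a matrix proteoglycan, was at 12.5 FPKM in M ZT21, 13.4 in M ZT1, 3.79 in nM ZT21 and 12.1 in nM ZT1, against 42.3 in M ZT9, 25.1 in M ZT13, 25.0 in nM ZT9 and 20.8 in nM ZT13 (log2 difference -1.43, standard error 0.33, adjusted p = 0.283, limma). The collagens COL3A1, at 4.06 to 8.08 FPKM at dawn and 9.91 to 14.8 FPKM in the late day, and COL1A2, at 3.28 to 4.98 FPKM and 6.26 to 10.7 FPKM, did not overlap either (log2 differences -1.02 and -0.75). DCN, the most abundant marker of the list, had -0.12 and PDGFRB 0.01, so the summed FPKM of the list overlapped, at 214 to 416 at dawn and 279 to 474.5 in the late day. None of the 8 was listed at 0 in all 8 libraries, and the count of lower genes was 3 or 4 with any 1 library left out.

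**Figure D4:**
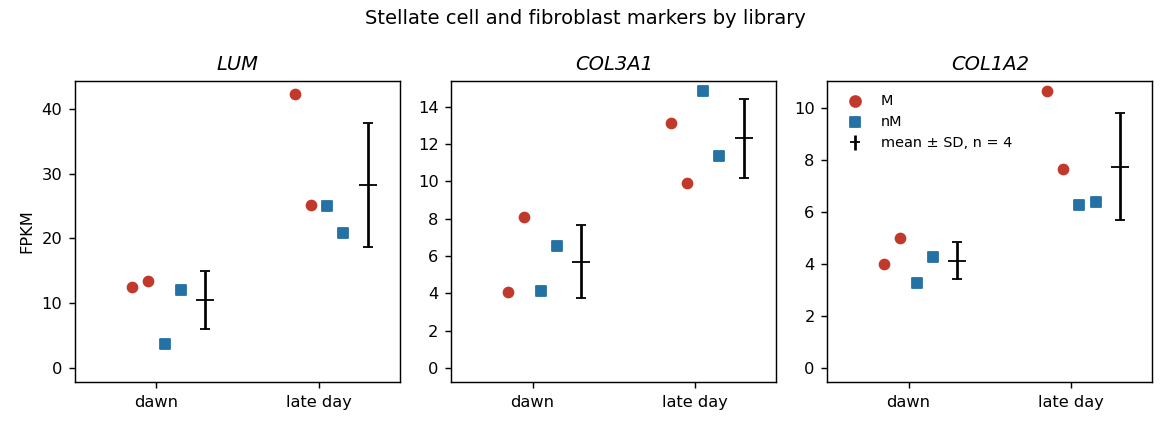
FPKM of 3 stellate cell and fibroblast markers with an unadjusted p under 0.05, by side, with 1 point for each library (M circles, nM squares) and the mean ± SD of the 4 libraries of a side as a black bar. In LUM, COL3A1 and COL1A2 all 4 late day libraries lie above all 4 dawn libraries.

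Other cell type markers gave fewer genes at an unadjusted p under 0.05, but most of their medians were also below 0. Median log2 differences were -0.60 for lymphocyte, -0.42 for erythroid, -0.26 for macrophage and -0.14 for endothelial genes. Those of the pancreas and muscle lists were -0.75 and -2.055, and those of the hepatocyte and cholangiocyte lists 0.17 and 0.38. Erythroid genes had 0 of 5 higher and 1 lower, with summed FPKM of 59.6 to 84.7 at dawn and 51.5 to 117 in the late day. Macrophage genes had 0 of 7 higher and 1 lower (sums 114 to 258 and 109 to 323 FPKM, with C1QB, C1QC and CTSS listed at 0 in all 8), lymphocyte genes 0 of 4 either way (32.6 to 109 and 71.3 to 214 FPKM, with CD28 at 0 in all 8) and endothelial genes 0 of 9 (50.7 to 59.3 and 49.1 to 71.8 FPKM). Hepatocyte genes had 2 of 9 higher, among them APOB. Cholangiocyte and pancreas lists had 1 and 2 genes tested, and the muscle list 2, and none of these passed either way.

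Housekeeping lists showed little difference. Cytosolic ribosomal proteins had 0 of 17 genes higher and 0 lower (median 0.00), mitochondrial ribosomal proteins 0 of 20 (median 0.12) and the respiratory chain 1 of 14 higher (median -0.04). Immediate early genes, which respond to acute stimuli such as handling, had 0 of 6 either way (median -0.06), although FOSL2 was at 8.05 FPKM in the nM bird of ZT1 and at 0 to 2.51 FPKM in the other 7. Among glucocorticoid response genes 1 of 7 was higher (TDO2) and 1 lower, but the median was 0.90, at -0.62 in M and 1.23 in nM birds. PCK1 had log2 differences of -0.88 in M and 3.60 in nM birds, and MT4, at 11810 FPKM in nM ZT1, -0.90 and 5.64. Neither interaction with state passed (unadjusted p = 0.00156 and 0.00852, adjusted p = 0.998 for both, limma). The lower gene, HSD11B1, which regenerates active glucocorticoid, was at 48.8 FPKM in M ZT21, 27.3 in M ZT1, 28.6 in nM ZT21 and 10.5 in nM ZT1, against 115 in M ZT9, 62.9 in M ZT13, 64.6 in nM ZT9 and 55.6 in nM ZT13 (log2 difference -1.46, standard error 0.36, adjusted p = 0.332, limma).

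The remaining lists had few or mixed members. Fasting response genes had 2 of 11 higher (CPT1A and INSR), purine and uric acid synthesis 1 of 11 higher and 1 lower, with XDH, which makes uric acid, at a log2 difference of 1.16 and PPAT, the first purine step, at -0.98. Thyroid hormone handling had 1 of 5 higher (SLC16A10, a transporter) and 1 lower (THRSP). Xenobiotic oxidation had 1 of 15 higher (CYP2J2-1) and 2 lower, among them CYP4B1 (-0.99). Haem genes had 2 of 6 higher, the synthesis enzyme ALAD (0.70) and the ferritin FTH1 (0.80). FTH1 was at 40810 FPKM in nM ZT1 and at 9355 to 19680 FPKM in the other libraries compared. The haem count of 2 ran from 0 to 2 with 1 library left out, and was lowest without nM ZT1. Endoplasmic reticulum chaperones and stress genes had 1 of 19 higher, XBP1 (1.08), a transcription factor of the unfolded protein response, with a list median of -0.05. NAD synthesis and sirtuins had 1 of 5 higher, ribosome biogenesis 1 of 15 higher and 1 lower, and the single cold-inducible gene tested, CIRBP, a log2 difference of 0.26.

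**Figure D5:**
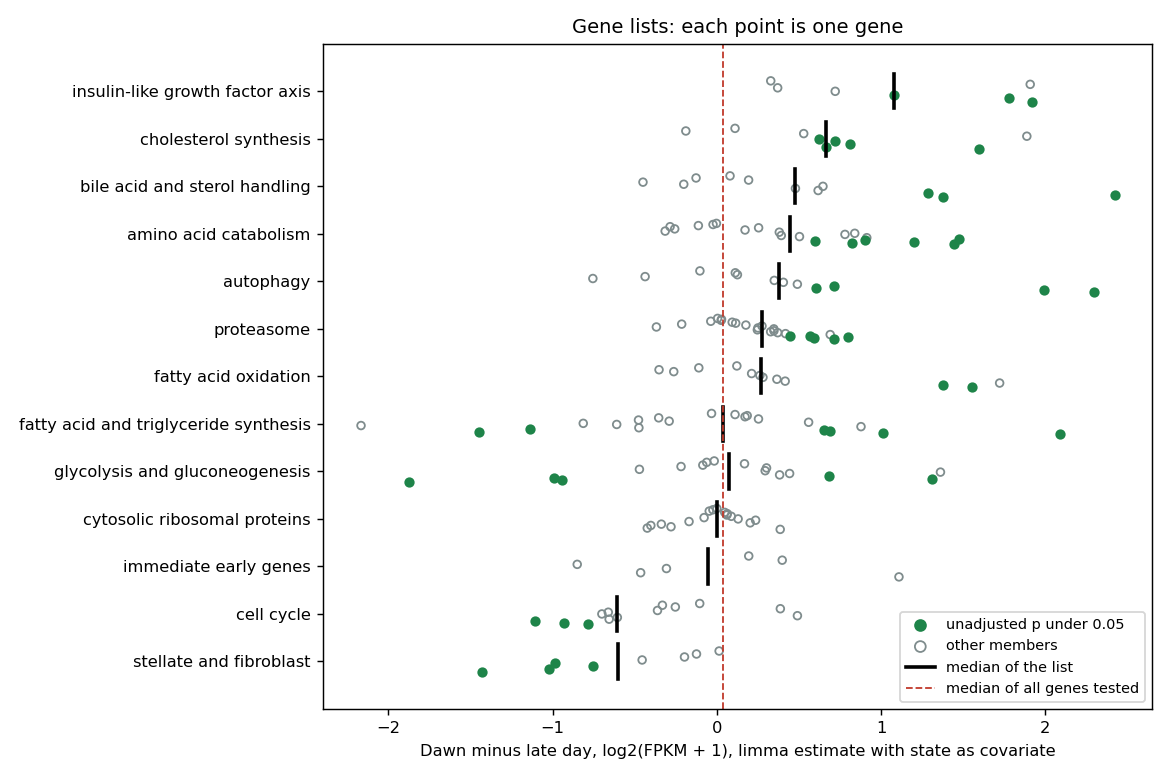
Log2 difference, dawn minus late day, for each gene of 13 lists, with genes at an unadjusted p under 0.05 filled and the others open; black bars mark list medians and the dashed line the median of all genes tested, 0.03. Medians run from 1.08 for the insulin-like growth factor axis to -0.61 for the cell cycle.

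How the libraries were scaled changed the balance of weak differences but not these medians' signs for the lists led with. At an unadjusted p under 0.05, 554 genes were higher and 407 lower, against 733 and 221 with FPKM rescaled to equal totals and 397 and 577 with each library centred on its median, where the median of all genes was 0.13 and -0.04. Sterol, bile acid, amino acid, autophagy, proteasome and growth factor lists kept medians above 0, and cell cycle and stellate cell lists medians below 0, under both.

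The calls rested on moderation of the variance and on single libraries. Ordinary linear regression called 0 genes in either direction, with 523 higher and 331 lower at an unadjusted p under 0.05. Genes higher at dawn numbered 4 without the M library of ZT9, 5 without that of nM ZT9 and 6 without that of nM ZT21, and genes lower at dawn numbered 0 without that of M ZT9 and 2 without those of M ZT13, nM ZT9 or nM ZT13. NR1D2, PNPLA2 and ENSTGUG00000000964 passed with any of the 8 libraries left out, with highest adjusted p-values of 0.0830, 0.0982 and 0.0961 (limma). CRY1 passed in 3 of the 8 cases, losing its call without M ZT21 or any late day library (highest adjusted p = 0.179), and HSF2 and TEF passed in 0 of 8 (highest adjusted p = 0.197 and 0.249). MSL1, ENSTGUG00000018375 and the called gene nearest to the threshold passed in 2 of 8 each (highest adjusted p = 0.244, 0.190 and 0.265), and ENSTGUG00000013562 in 3 of 8 (0.190). IGF1 and NT5DC4 passed in 5 of 8, UGT1A8 and ENSTGUG00000007481 in 6 and KLHL30 in 7, and all of these but ENSTGUG00000007481 lost their call without M ZT9.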

How the data were processed

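Liver RNA of 12 birds was measured by poly(A) RNA sequencing on 1 lane after extraction in 1 batch, with a kit that does not mark strand. The authors clipped adapters and low-quality bases, removed ribosomal reads with Bowtie2 2.0.2, used STAR for mapping against zebra finch and Cufflinks 2.2.1 for FPKM. The deposited FPKM table was used; the deposited log2 table holds log2(FPKM + 1) of a subset of genes and was only compared with it. Whole reads could not be recovered from the FPKM, so no counting error was computed and precision comes from the spread between birds. The supplement of the study gives reads per library, which were not used in the tests. The nM library of ZT13 had the fewest.

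Groups came from the state and time labels. Genes with FPKM above 0.1 in at least 7 of the 8 libraries were fitted on log2(FPKM + 1) in limma 3.58.1 (R 4.3.3) with side and state as terms, with Benjamini-Hochberg adjustment over all genes tested, and called at FDR below 0.1 and an absolute log2 difference above 0.1. The logarithm of FPKM + 1 understates the change of low genes. A second model added the interaction of side and state. The scripts were tested on simulated data. Symbols, taken from the supplementary tables of the study, matched 4651 of 18284 identifiers. Most symbols come from a list of genes called cyclic in these libraries. No genome or annotation was used here, so no coordinates or sequences are given.

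The members and lists were chosen with earlier results of these data known. Named genes were all clock genes tested, the 12 genes with a symbol and smallest p in each direction, and in each other list the called members or else at most the 2 of smallest p. Other list members and genes without a symbol were named after their values were seen. Alternatives varied the pseudocount, filter, scaling, state term, variance model and libraries. Leaving out libraries for the list counts was added after seeing the data. Some members of the lists are counted but not reported by name here.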

Additional observations from a re-analysis of the deposited data

Results flagged for a closer look

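Of 78 sides of 39 genes, 4 held 1 library far from the other 3 by Dixon's ratio of the gap to the range. Chance gives about 1 in 20 groups past the critical value, close to the share found. Each side also mixes states and times, which the ratio does not allow for. ESR2 in the late day had its highest value in the nM library of ZT13 (ratio 0.984), and so had CRY1 (0.853). This is the library that held muscle RNA, and CRY1 was highest at ZT13 in M birds as well. UGT1A8 in the late day was highest in the M library of ZT13 (0.864), which had the high CPA1 value, and FBXL21 in the late day was lowest in the M library of ZT9 (0.87). In ESR2, CRY1 and UGT1A8 the other 3 late day libraries also lay beyond all 4 dawn libraries.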

How the results depend on the processing

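The counts of 10 genes higher and 5 lower at dawn depended on the processing. They became 6 and 0 with a pseudocount of 0.1, 6 and 3 with no filter on low values (where 5 genes passed the interaction with state), 2 and 3 without the state term, 3 and 0 with all 12 libraries in the fit, and 0 and 0 with ordinary linear regression, where 523 and 331 genes had an unadjusted p under 0.05. Equal totals gave 18 and 6 genes, and centring on medians 10 and 7. An FPKM minimum of 1 gave 10 and 5, and a trend with robust moderation 11 and 5. With 1 library left out, higher genes ranged from 4 to 11, lower genes from 0 to 7 and interaction genes from 0 to 6. The causes were not tested. No named gene passed in the opposite direction under the alternatives run. Called genes passed in 145 gene and setting pairs and failed in 109, and other named genes passed in 17 and failed in 1383. Differences near 0 that did not pass, such as that of PER2, can change sign with 1 library left out. No paired analysis was possible because each liver came from a different bird. Differences between the times of a side add to the spread that the p-values measure, and the depth of a library does not enter the fits.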
